A study of Mus musculus with 96 samples.

Results

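The 9 genes described here encode the signalling chains of the T-cell receptor (TCR) and the kinases and adaptors that act next to it. They were taken by symbol from the deposited expression table, 9 of the 24057 genes listed. They fall into 4 CD3 chains (Cd3d, Cd3e, Cd3g and Cd247), 3 tyrosine kinases (Lck, Fyn and Zap70) and 2 adaptors (Lat and Lcp2). EL4 cells, a T-cell lymphoma line of C57BL/6 mouse origin (C57BL/6 N in the study's methods), were infected with retroviral particles carrying a short hairpin RNA (shRNA) against Ctcf or against luciferase, which mammalian cells lack. GFP+ cells were sorted, and single cells were captured with a Fluidigm C1 instrument for sequencing. The control cells are labelled wild type (WT) although they carried the luciferase shRNA, so all 4 cultures were infected. The study's methods list 2 hairpins against Ctcf, and whether the culture number stands for a hairpin is not given in the sources used here, so that hairpin and experiment cannot be told apart. The WT cultures were shLuc #1 (24 cells) and shLuc #2 (23 cells), and the CTCF-knockdown (CTCF-KD) cultures were shCTCF #1 (24 cells) and shCTCF #2 (24 cells). Cultures numbered 1 came from the initial experiment and cultures numbered 2 from the second knockdown. In total 95 of 96 cells were kept, the cell left out having 81 genes with reads against a minimum of 3000. All cells came from 1 cell line, and each culture was a population of infected cells of which the 24 cells of highest quality had been chosen for sequencing.

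In a T cell, the antigen-binding receptor chains carry almost no signalling sequence of their own, and they travel to the surface with the CD3 gamma, delta, epsilon and zeta chains, encoded by Cd3g, Cd3d, Cd3e and Cd247. The tails of the CD3 chains hold tyrosine motifs (ITAMs) that the Src-family kinases Lck and Fyn phosphorylate when the receptor is engaged. Zap70 binds the phosphorylated motifs and in turn phosphorylates the membrane adaptor Lat and the cytosolic adaptor SLP-76, the product of Lcp2, on which calcium and Ras signalling are assembled. Genes of the receptor's own antigen-binding chains were not analysed here.

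Cd3g, Cd3d and Cd3e lie next to each other on mouse chromosome 9, within a span of 40056 bases (GENCODE M21 gene models, build GRCm38). Cd3g (chr9:44969572-44980431, minus strand) and Cd3d (chr9:44981786-44987339, plus strand) start back to back, with 1355 bases between them, and Cd3e (chr9:44998740-45009627, minus strand) follows 11401 bases beyond the end of Cd3d. Cd247 lies apart at chr1:165788681-165877277, plus strand. Since CTCF, the protein that was depleted, is named for the CCCTC motif it was first found to bind, the 250 bases before the start sites of the 4 CD3 chain genes are printed to show where this core occurs. The sequences are from RefSeq on GRCm38.p6, where all 9 members had an entry, and are given in the direction of each gene, with every CCCTC, or GAGGG on the opposite strand, in capitals.

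Cd3d, chr9:44981536-44981785, plus strand: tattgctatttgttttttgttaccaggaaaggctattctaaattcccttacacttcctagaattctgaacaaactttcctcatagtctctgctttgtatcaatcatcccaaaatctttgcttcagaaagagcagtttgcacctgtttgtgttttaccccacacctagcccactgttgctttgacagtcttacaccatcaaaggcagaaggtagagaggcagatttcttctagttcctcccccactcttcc

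Cd3g, chr9:44980432-44980681, minus strand: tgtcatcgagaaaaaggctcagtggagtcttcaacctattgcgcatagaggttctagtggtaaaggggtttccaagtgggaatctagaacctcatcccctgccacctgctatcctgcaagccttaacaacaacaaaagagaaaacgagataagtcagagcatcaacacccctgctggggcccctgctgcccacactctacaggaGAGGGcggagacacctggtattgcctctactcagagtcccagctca

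Cd3e, chr9:45009612-45009861, minus strand: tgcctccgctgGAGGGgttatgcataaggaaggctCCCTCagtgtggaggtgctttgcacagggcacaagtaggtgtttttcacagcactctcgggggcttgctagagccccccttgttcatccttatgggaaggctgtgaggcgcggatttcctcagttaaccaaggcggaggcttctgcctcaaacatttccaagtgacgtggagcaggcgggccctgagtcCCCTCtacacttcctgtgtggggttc

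Cd247, chr1:165788431-165788680, plus strand: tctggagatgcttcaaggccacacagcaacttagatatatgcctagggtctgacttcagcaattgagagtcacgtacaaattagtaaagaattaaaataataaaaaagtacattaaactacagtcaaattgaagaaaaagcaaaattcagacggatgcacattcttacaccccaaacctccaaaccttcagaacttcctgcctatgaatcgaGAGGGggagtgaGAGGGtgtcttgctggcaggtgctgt

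The Cd3d window held 0 matches, Cd3g 1, Cd247 2 and Cd3e 3. The motif is short, and 60.5% of 32851 windows of the same kind held it at least once. GC content was 41.2% for Cd3d and Cd247, 51.6% for Cd3g and 57.2% for Cd3e, against a median of 52.4% over all windows. A match to these letters is a description of the window and not a binding site.

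The other members are spread over the genome. Lck lies at chr4:129548344-129573641 (minus strand), Fyn at chr10:39368855-39565381 (plus strand), Zap70 at chr1:36761798-36782818 (plus strand), Lat at chr7:126363824-126369570 (minus strand) and Lcp2 at chr11:34046920-34092295 (plus strand). The annotated exons of Cd247 run into those of Pou2f1, a transcription factor gene on the opposite strand, and 3007 of 5329 exon bases of Cd247 (56.4%) are shared between them. The overlap touches 7 of the 9 annotated Cd247 transcripts but not the first one, Cd247-201. How reads in the shared bases were assigned, and whether strand was used, is not given in the sources used here, so the level of Cd247 is uncertain. For the other members at most 6.32% of exon bases were shared with any other gene.

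Whole reads could be recovered from the deposited values (TPM, an abundance of transcripts corrected for the length of a gene and scaled to the same sum in every cell). A culture held between 3232420 reads (shCTCF #2) and 6192120 reads (shLuc #1), with a median of 131098 to 247586 reads in a cell. More genes were found in CTCF-KD cells (median 6173 and 5656 genes per cell in shCTCF #1 and #2) than in WT cells (4771 and 4635 in shLuc #1 and #2). The difference remained when every cell was thinned to 80000 reads (5242 and 5240 against 4175 and 3983). Ctcf itself averaged 60.3 TPM in shLuc #1 and 15.96 TPM in shCTCF #1, but 37.1 TPM in shLuc #2 and 44.9 TPM in the culture labelled shCTCF #2. The transcript was thus lower in the first knockdown culture alone, and every direction drawn below for the second experiment rests on the label of that culture. By the study's methods, populations were taken for single-cell sequencing after RT-qPCR and Western blotting had shown efficient knockdown, measures that are not part of the table analysed here. 1 cell of the culture labelled shCTCF #2 stood apart: it had 41591 reads, against 86190 in the next lowest cell, and its median correlation with other cells was 0.45, against 0.55 in the next lowest cell and a median of 0.66. This shallowest cell had 0 reads of Cd3e, Cd3g and Lcp2, 2 reads of Cd3d (90.4 TPM) and 59 reads of Lat (2799 TPM), and results that it moves are given with and without it.

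The cells carried the T-cell identity of their label. All 9 T-cell markers listed, which include Cd3d, Cd3e, Cd3g and Lck, were found in most of the cells. The B-cell markers Cd79b, Ms4a1 and Pax5, the myeloid markers Lyz2 and Cd14, the NK-cell markers Ncr1, Klrb1c and Klrk1 and all 3 erythroid markers present in the table were at 0 in every cell. The summed mean TPM of the B-cell list reached at most 4.13 in a culture, against 6139 to 8663 for the T-cell list. The T-cell sum includes Cd3d, Cd3e, Cd3g and Lck, so it is not separate from the levels of these members. The myeloid list summed to 224 to 474 TPM, almost all of it from Fcer1g, which is described below.

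The levels of the 9 genes spanned a wide range of expression in these cells. On average over the 4 cultures, Cd3d and Cd3g ranked 44th and 47th among all genes with reads, Lck 86th, Lat 158th, Cd3e 732nd, Zap70 763rd and Lcp2 930th. Fyn ranked 5016th and Cd247 8852nd. Expressed as log2(mean TPM + 1), Cd3d averaged 11.06 ± 0.25 (SD, n = 4 cultures) and Cd3g 11.01 ± 0.42, and each was above the other in 2 of 4 cultures. Lck at 10.35 ± 0.36 was below Cd3g in all 4 cultures, and Lat at 9.68 ± 0.46 was below Lck in all 4, by 0.67 ± 0.76. Cd3e (7.89 ± 0.48) and Zap70 (7.84 ± 0.38) changed places in 2 of 4 cultures, as did Zap70 and Lcp2 (7.55 ± 0.44). A clear step followed to Fyn (4.48 ± 0.47) and another to Cd247 (2.20 ± 1.30), each lower in all 4 cultures. Neighbours in this order that changed places did not differ beyond their spread over cultures.

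**Figure D1:**
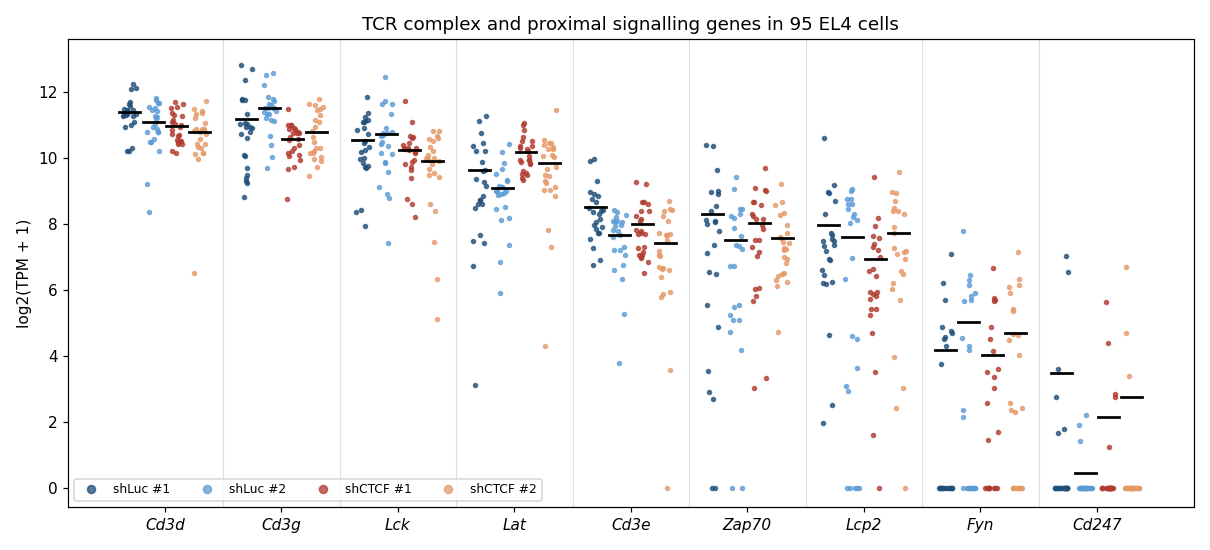
Each point is the log2(TPM + 1) value of a gene in 1 of 95 cells, shown by culture, with a small horizontal jitter. Black bars mark log2 of the mean TPM + 1 of a culture. Cd3d, Cd3g, Lck and Lat were high in nearly every cell, whereas Fyn and Cd247 were at 0 in 43 and 78 cells.

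Of the CD3 chains, 3 were expressed in practically every cell. Reads of Cd3d were found in 95 cells and reads of Cd3e and Cd3g in 94 cells each, so that 94 of 95 cells carried all 3, the exception being the shallowest cell. The levels of the 3 transcripts were far from equal. Within a cell, Cd3d exceeded Cd3e by a median of 2.88 to 3.47 on the log2 scale of TPM in the 4 cultures, while the median log2 ratio of Cd3d to Cd3g lay between −0.28 and 0.45.

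Cd247, which encodes the zeta chain with most of the receptor's ITAMs, was the exception. It had reads in 17 of 95 cells and 249 reads in all, 152 and 4 in shLuc #1 and #2, and 47 and 46 in shCTCF #1 and #2. This corresponded to 24.5 RPM, the reads of a gene scaled to the total of its culture without correction for length (95% Poisson interval 20.8 to 28.8) in shLuc #1 and 0.73 (0.20 to 1.86) in shLuc #2, and to 8.38 (6.16 to 11.1) and 14.2 (10.4 to 18.98) in shCTCF #1 and #2. In each culture 1 cell held 50% to 67.4% of these reads, so that these intervals, which cover counting error only, understate the uncertainty.

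Among the relatives of the 9 genes that other blood cells use, Fcer1g had the highest level. It encodes the FcεRI gamma chain, a homologue of CD3 zeta that serves Fc receptors and can join the TCR in place of zeta. It had reads in 34 cells, 7 and 8 cells of shLuc #1 and #2 and 10 and 9 cells of shCTCF #1 and #2, at mean levels of 371 and 224 TPM and of 273 and 470.4 TPM. These means rest on few cells, since the median was 0 in every culture. A single cell held 85.4% and 37.4% of the Fcer1g reads in shLuc #1 and #2, and 71.6% and 20.8% in shCTCF #1 and #2. Cd247 and Fcer1g occurred together in 7 cells, Cd247 alone in 10, Fcer1g alone in 27 and neither in 51. The majority of cells thus held Cd3d, Cd3e and Cd3g transcripts with no read of either zeta-family gene at this depth. Syk, the relative of Zap70, and the Src-family kinases Yes1 and Src were at 0 in all cells, as were Clnk and Cd79b. For 0 cells with reads in a culture, the exact 95% binomial interval reached 14.2% to 14.8% of cells at this depth. This is no limit on the share of cells that express the gene. Fgr, another Src-family kinase, had reads in 29 cells.

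**Figure D2:**
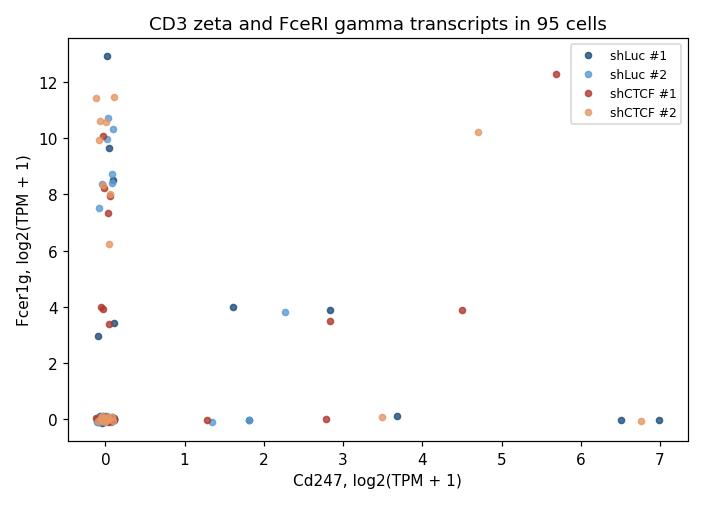
Each point is 1 of 95 cells, with the log2(TPM + 1) value of Cd247 on the horizontal axis and of Fcer1g on the vertical axis, coloured by culture and jittered by up to 0.12 in each direction. Most cells sit at the origin or on an axis, and 7 cells had reads of both genes.

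The question put to the 4 cultures was whether depletion of Ctcf went with a change in the level of these genes. Cd3d, Cd3g and Lck were lower in both CTCF-KD cultures than in both WT cultures, and Lat was higher in both. None of the 9 differences passed the test. Of 11980 genes fitted with limma on log2(mean TPM + 1) of the cultures, 0 (0%) passed an adjusted p of 0.05, the smallest adjusted p being 0.585, and 912 genes (7.61%) had an unadjusted p under 0.05, none of them a member. With the experiment as a block, which pairs the cultures, 0 genes (0%) passed as well, but 1531 genes (12.8%) had an unadjusted p under 0.05 in limma, among them 4 of 9 members: Cd3g (p = 0.0017), Lat (p = 0.0054), Lck (p = 0.017) and Cd3d (p = 0.027). The median log2 change was −0.36 over the 9 genes and 0.04 over all genes tested.

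Cd3d, the CD3 delta chain, averaged 2679 ± 911 TPM (SD over cells) and 2161 ± 881 TPM in shLuc #1 and #2, and 1999 ± 647 and 1768 ± 726 TPM in shCTCF #1 and #2. Its lowest, median and highest cells were at 1175, 2564 and 4791 TPM in shLuc #1 and 323, 2069 and 3584 TPM in shLuc #2. In shCTCF #1 they were at 1138, 1904 and 3311 TPM, and in the culture labelled shCTCF #2 at 90.4, 1767 and 3390.5 TPM. The ranges of cells overlapped in all cultures, and the 4 culture means did not. The log2 change was −0.36 (SE 0.29, limma adjusted p = 0.81), −0.42 in experiment 1 and −0.29 in experiment 2. Without the shallowest cell it was −0.33.

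Cd3g, the CD3 gamma chain, had the lowest log2 change of the members that were lower in both experiments. It averaged 2293 ± 1821 and 2922 ± 1279 TPM in shLuc #1 and #2, and 1506 ± 525 and 1772 ± 938 TPM in shCTCF #1 and #2. The lowest, median and highest cells were at 451, 1922 and 7222 TPM in shLuc #1 and 825, 2916 and 6051 TPM in shLuc #2, against 425, 1541 and 2855 TPM in shCTCF #1 and 0, 1501 and 3524 TPM in the culture labelled shCTCF #2. Above 4000 TPM there were 3 cells in each WT culture and 0 in each CTCF-KD culture. This limit lies above the highest CTCF-KD cell, at 3524 TPM, so the split describes these values and is no test. The log2 change was −0.66 (SE 0.30, limma adjusted p = 0.67), −0.61 and −0.72 in experiments 1 and 2, and −0.63 without the shallowest cell.

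Cd3e, the CD3 epsilon chain, averaged 365 and 199 TPM in shLuc #1 and #2 and 256 and 169 TPM in shCTCF #1 and #2. The conditions overlapped, and the log2 change was −0.37 (SE 0.42, limma adjusted p = 0.87). The values of the 2 experiments lay further apart than those of the conditions: shLuc #2 was below shLuc #1 by a log2 difference of −0.87, and shCTCF #2 was below shCTCF #1 by −0.59. Cd247 averaged 10.1 and 0.349 TPM in shLuc #1 and #2 and 3.38 and 5.71 TPM in shCTCF #1 and #2, and the fitted log2 change of 0.49 (SE 1.19, limma adjusted p = 0.95) had opposite signs in the experiments.

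Lck, the kinase that phosphorylates the ITAMs, averaged 1487 ± 828 and 1687 ± 1224 TPM in the shLuc cultures and 1206 ± 628 and 959.8 ± 516 TPM in the shCTCF cultures, each in the order #1 and #2. Its lowest, median and highest cells were at 243, 1336 and 3663 TPM in shLuc #1, 168, 1435 and 5614 TPM in shLuc #2, 291, 1219 and 3375 TPM in shCTCF #1 and 33.3, 979 and 1802 TPM in the culture labelled shCTCF #2. The culture labelled shCTCF #2 was the lowest by mean, median and maximum. The log2 change was −0.56 (SE 0.29, limma adjusted p = 0.72), −0.30 in experiment 1 and −0.81 in experiment 2.

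Fyn, the second Src-family kinase of T cells, averaged 17.1 and 31.7 TPM in shLuc #1 and #2 and 15.2 and 24.9 TPM in shCTCF #1 and #2, with a log2 change of −0.25 (SE 0.68, limma adjusted p = 0.96). As with Cd3e, the cultures of an experiment lay closer together than those of a condition, cultures numbered 2 being higher by 0.85 in WT and 0.67 in CTCF-KD. Zap70 averaged 311 and 180.5 TPM in WT and 261 and 187 TPM in CTCF-KD, a log2 change of −0.10 (SE 0.40, limma adjusted p = 0.97). It was also ordered by experiment, cultures numbered 2 being lower by −0.78 and −0.48.

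Lat, the membrane adaptor that Zap70 phosphorylates, was the only member higher in both CTCF-KD cultures. It averaged 786 ± 654 and 542 ± 308.5 TPM in shLuc #1 and #2, against 1151 ± 416 and 919 ± 579.5 TPM in shCTCF #1 and #2. The lowest, median and highest cells were at 7.57, 587 and 2472 TPM in shLuc #1 and 58.8, 511 and 1365 TPM in shLuc #2, against 640.0, 1013 and 2106 TPM in shCTCF #1 and 18.7, 829.9 and 2799 TPM in the culture labelled shCTCF #2. No cell of shCTCF #1 lay below 640.0 TPM, above the median of both WT cultures, while the other 3 cultures each held 1 cell under 60 TPM. The log2 change was 0.66 (SE 0.32, limma adjusted p = 0.70), 0.55 and 0.76 in the experiments. The shallowest cell held the highest value of its culture, and without it the change was 0.59.

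Lcp2, the gene of SLP-76, averaged 246 and 193 TPM in shLuc #1 and #2 and 121 and 209 TPM in shCTCF #1 and #2. The conditions overlapped, and the log2 change was −0.45 (SE 0.39, limma adjusted p = 0.82). It was −1.01 in experiment 1 and 0.12 in experiment 2.

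Read against all genes, these counts were as follows. Both CTCF-KD cultures were above both WT cultures for 19.9% of the genes tested and for 1 of 9 members, and below both for 16.9% of genes and for 3 of 9 members. The direction was higher in both experiments for 30.1% of genes and 1 member (Lat), and lower in both for 26.7% of genes and 5 members (Cd3d, Cd3e, Cd3g, Lck and Fyn). With 2 cultures per condition an exact permutation test cannot go below p = 0.33, so that it can show neither a difference nor its absence. When the mean over cells of log2(TPM + 1) was tested instead, 46 genes passed (0.384%), none of them a member, and Fyn, Zap70 and Lcp2 turned to higher values in CTCF-KD on that scale, where the median of all genes was also higher, by 0.23.

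**Figure D3:**
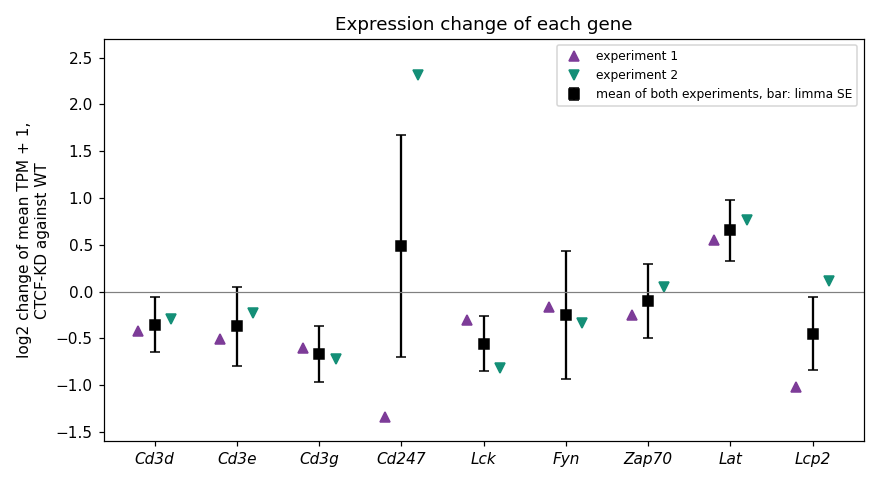
The vertical axis gives the log2 change of mean TPM + 1 in CTCF-KD against WT for each gene. Squares are the fitted change with its limma SE, and triangles are the change within experiment 1 (upward) and experiment 2 (downward). Cd3d, Cd3g and Lck lie below 0 and Lat above 0 in both experiments, and Cd247, Zap70 and Lcp2 changed sign between them.

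The share of cells with reads differed for few members. Cd3d, Lck and Lat had reads in all 95 cells. Zap70 was without reads in 2 cells of each WT culture and had reads in all 48 CTCF-KD cells, 91.5% against 100% on average (exact permutation p = 0.33, the smallest possible). Fyn had reads in 10 of 24 and 13 of 23 WT cells and in 14 and 15 of 24 CTCF-KD cells (41.7% and 56.5% against 58.3% and 62.5%), with exact 95% binomial intervals from 22.1% to 81.2% over the 4 cultures. Lcp2 lacked reads in 5 cells of shLuc #2 and in at most 1 cell of any other culture. After thinning to 80000 reads the shares were 87.3% and 97.9% for Zap70, 44.7% and 55.4% for Fyn, and 80.6% and 93.7% for Lcp2 in WT and CTCF-KD. For Fyn the direction depended on the threshold, since the share of cells above 10 TPM was lower in CTCF-KD by a difference of −3.08 percentage points. More genes per cell were detected in CTCF-KD cells, also after thinning, and the part of this in the shares was not tested.

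Cell-to-cell variation was measured by the coefficient of variation (CV) of log2(TPM + 1) among all cells of either condition. The rule called a gene increased or decreased if its CV in CTCF-KD minus that in WT was further than 1 SD from the average of this value over 7843 genes, those averaging above 1 as log2(TPM + 1). By this rule, which gives no p-value, 7.68% of genes were increased and 11.3% decreased. Of the 8 members above the filter (Cd247 was below it) none was called. WT cells had a median CV of 1.07 over these genes, and CTCF-KD cells one of 0.80. The CV on this scale was lower for genes of higher level. In WT it lay between 0.064 for Cd3d and 0.46 for Lcp2 among the 7 members of higher level, and Fyn, with its many cells at 0, was at 1.10.

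Zap70 and Fyn had the lower CV in CTCF-KD cells of both experiments. Over the pooled cells 81.5% of all genes had the lower CV in CTCF-KD. Among the members Fyn, Zap70, Lat and Lcp2 did so, and Cd3d, Cd3e, Cd3g and Lck did not. Without the shallowest cell the pooled difference was −0.020 for Cd3d and −0.026 for Cd3g, and it stayed above 0 for Cd3e and Lck. The differences for Fyn were −0.24 and −0.08 in experiments 1 and 2. For Zap70 the CV in WT and CTCF-KD was 0.44 and 0.23 in experiment 1, 0.39 and 0.14 in experiment 2, and 0.42 and 0.19 over the pooled cells. The limits of the rule, however, were set by the whole distribution of CV differences, whose mean was −0.28 and SD 0.41, and the difference of −0.23 for Zap70 was smaller in size than this mean. When the SD of log2(TPM + 1) was used in place of the CV, 13.4% of genes were increased and 13.2% decreased. On this scale Zap70 was decreased, from 2.72 to 1.38, and it was decreased without the shallowest cell too. Under 40 TPM of Zap70 there were 6 and 7 cells in the WT cultures and 2 and 1 in the CTCF-KD cultures. The highest cells did not separate the conditions, at 1344 and 678 TPM in WT and 828.5 and 592 TPM in CTCF-KD.

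Cd3e and Cd3g were called increased on the SD scale, Cd3e from 1.06 to 1.48 and Cd3g from 0.96 to 1.66. Both calls rested on the shallowest cell. Within the culture labelled shCTCF #2 the SD of Cd3g was 2.29 with this cell and 0.70 without it, against 1.10 and 0.68 in the shLuc cultures and 0.58 in shCTCF #1. For Cd3e it was 1.85 with and 1.17 without the cell, and for Cd3d 0.99 and 0.50. Without it neither Cd3e nor Cd3g was called, the differences in SD were −0.02 for Cd3e and −0.32 for Cd3g, and Lcp2 was called decreased beside Zap70.

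**Figure D4:**
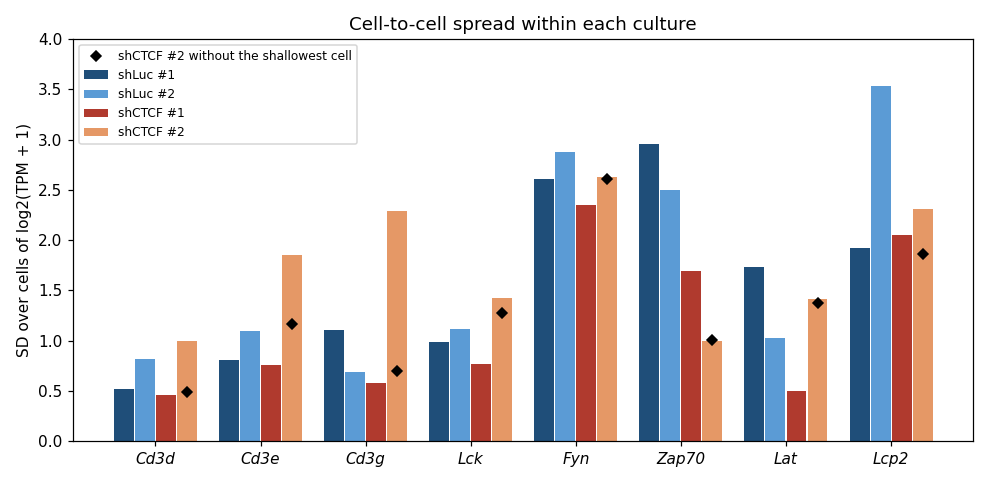
Bars give the SD over cells of log2(TPM + 1) of 8 genes in each of the 4 cultures (23 or 24 cells each), and diamonds give shCTCF #2 without its shallowest cell. Zap70 was less variable in both CTCF-KD cultures, and the tall bars of Cd3g and Cd3e in shCTCF #2 came down to 0.70 and 1.17 without that cell.

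Lat had its lowest spread in shCTCF #1, where the SD was 0.50 against 1.73 in shLuc #1. In experiment 2 the SD was 1.03 in WT and 1.42 in CTCF-KD, so that the direction differed between the experiments. Lck varied by an SD of 0.98 and 1.12 in WT and 0.77 and 1.42 in CTCF-KD, again with no common direction.

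Whether the transcripts of the complex rise and fall together from cell to cell was described by the correlation of log2(TPM + 1) over 95 cells after centring each culture on its own mean. The points share libraries and depth, and the values are descriptions without a test. The pair Cd3e and Cd3g had r = 0.72, Cd3d and Cd3g r = 0.64, and Cd3d and Cd3e r = 0.49. The shallowest cell, which was low in all 3, carried much of this: without it the values were 0.49, 0.33 and 0.20. For Cd3e, Cd3g was then still the best correlated of 7842 genes, where the median gene was at −0.02 and the 99th percentile at 0.27. For Cd3g, Cd3e was the 4th. Cd3d and Cd3e ranked lower, Cd3e being the 415th for Cd3d and Cd3d the 334th for Cd3e. Cd3d was closest to Lck among the members, with r = 0.38 over 94 cells, the 8th of 7842 genes.

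The cultures differed in this respect. In shLuc #1 the 3 pairs had r of 0.64 (Cd3e and Cd3g), 0.52 (Cd3d and Cd3g) and 0.42 (Cd3d and Cd3e), and in shCTCF #1 0.49, 0.38 and 0.12. In shLuc #2 they were 0.30, −0.08 and −0.10, and in shCTCF #2 without the shallowest cell 0.61, 0.76 and 0.55. Cd3e with Cd3g was positive in all 4 cultures, and the pairs with Cd3d were near 0 in shLuc #2. Zap70 and Cd3g had r of 0.43 and 0.30 in shLuc #1 and #2, 0.48 in shCTCF #1, and 0.19 in shCTCF #2 with the shallowest cell and 0.33 without it. Over all cells this pair had r = 0.24 with that cell and 0.38 without it. Without it Cd3g was the 7th of 7842 genes for Zap70, and Zap70 the 24th for Cd3g.

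**Figure D5:**
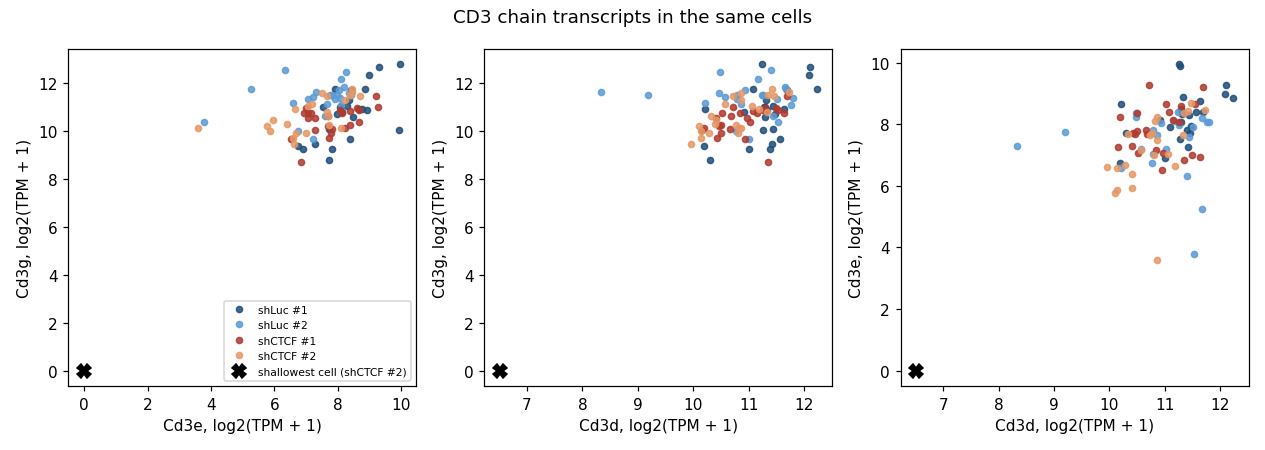
Each point is a cell, with log2(TPM + 1) of 2 CD3 chain genes on the axes, coloured by culture, and the cross is the shallowest cell. That cell lies far from the others in all 3 panels, and the remaining cells showed r of 0.49, 0.33 and 0.20 from left to right.

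Genes whose pattern was most like the mean of the 4 CD3 chains over cells were Myl12b (r = 0.67), Rpl7 (r = 0.65) and Atp5f1 (r = 0.65) among 7835 genes. In the culture labelled shCTCF #2 r was 0.84 for Myl12b and 0.86 for Rpl7 and Atp5f1, whereas it lay between 0.16 and 0.53, −0.13 and 0.14, and −0.09 and 0.47 in the other cultures. Without the shallowest cell the 3 most like genes were S100a4 (r = 0.54), Ostf1 (r = 0.44) and Galk2 (r = 0.42), so that none of the first 3 remained.

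Other genes of the pathway were summarised by role from a list of 70 genes, of which 62 were in the table and 58 were tested. None passed the limma test, and 2 had an unadjusted p under 0.05, against 7.61% of all genes tested. In both experiments 7 were higher and 22 lower, against 30.1% and 26.7% of all genes. The median log2 change was −0.18. Among the 6 co-receptors and modulators tested, Cd2, an adhesion receptor, had the highest statistic (log2 change 0.27, SE 0.36, limma adjusted p = 0.89) and Cd4 the lowest (−2.29, SE 1.27, limma adjusted p = 0.74). Cd4 had reads in 1 cell of each culture, and Cd8a and Cd8b1 were at 0 in all cells. Reads of a co-receptor were thus found in few cells.

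Of 16 effectors and adaptors next to LAT and SLP-76, 1 was higher and 7 lower in both experiments, against 30.1% and 26.7% of all genes. Sh2d2a, the gene of an adaptor that binds Lck, was at 0.38 (SE 0.38, limma adjusted p = 0.85), and Fyb, the gene of a SLP-76 partner, at −0.74 (SE 0.36, limma adjusted p = 0.70). Fyb averaged 132 and 142 TPM in WT and 75.8 and 87.4 TPM in CTCF-KD. It was named for the lowest statistic in this role, a choice that favours such a separation. Both CTCF-KD cultures were below both WT cultures for 5 of these 16 genes and for 16.9% of all genes. Of 16 negative regulators tested, 3 were higher and 5 lower in both experiments, beside the same shares of all genes. Lax1, a LAT-like adaptor that dampens signalling, had the highest statistic (log2 change 2.78, SE 0.79, limma adjusted p = 0.585). It had reads in 1 cell of each WT culture and in 7 and 4 cells of shCTCF #1 and #2. Cbl, a ubiquitin ligase that targets activated receptors and kinases, had the lowest (−1.82, SE 0.77, limma adjusted p = 0.66).

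Among 20 downstream signalling genes, 3 were higher and 6 lower in both experiments, against 30.1% and 26.7% of all genes. Mapk3, the kinase ERK1, was at 0.84 (SE 0.43, limma adjusted p = 0.70). It averaged 48.7 and 46.7 TPM in shLuc #1 and #2 and 72.6 and 102.6 TPM in shCTCF #1 and #2. In shCTCF #2 it had reads in 8 of 24 cells, with a median of 0 and 1 cell at 2206 TPM, which carried most of the mean. The mean over cells of log2(TPM + 1), which 1 cell moves less, was lower in shCTCF #2 (1.89) than in shLuc #2 (2.76).

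Counted per cell, a median of 7.5 and 7 of the 9 genes had reads in shLuc #1 and #2 and of 8 in each shCTCF culture, and 8 of 95 cells had reads of all 9. At least 7 were found in 90 cells. The lowest count was 4, in the shallowest cell.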

How the data were processed

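Single EL4 cells were profiled by full-length RNA-seq. Per the study's methods, the authors aligned reads to GRCm38.89 with STAR, counted unique alignments over RefSeq genes with HTSeq and deposited TPM per gene and cell; strand handling and gene lengths are not given in the sources used here. Of 96 cells, 1 with under 3000 genes was dropped. Whole reads were recovered from the common step of the TPM values (within 0.001 of a whole number for 100% of genes found in at least 10 cells, and for 0% of them with the scaling of cells shuffled) and gave depth, intervals for counting error and values thinned to 80000 reads per cell, without the shallowest cell.

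The culture was the sample. log2(mean TPM + 1) of 2 CTCF-KD and 2 WT cultures was compared with limma 3.58.1 (eBayes with a trend, R 4.3.3) over 11980 genes (2 or more cells past 1 on that scale) with Benjamini-Hochberg adjustment, because TPM are not counts; such changes are understated for low genes. P-values cover only the spread between these cultures, which limma moderates with the variance of other genes. With the block, 4 cultures leave little spread of a gene's own, so those p-values lean more on other genes. The culture number marks the experiment in the study's methods and so pairs the samples (r = 0.275 between deviations of same-numbered cultures over 7843 genes); a fit with this block was an alternative. CV calls used a limit of 1 SD, as in the study. Code was tested on simulated data.

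The members and gene lists were chosen with earlier results of these data known. Named besides the members were the genes with the highest and lowest limma statistic in each role, the relative with the highest mean TPM and the 3 genes most like the CD3 chains; some genes are not reported here. Other relatives, markers, Pou2f1 and the most like genes without the shallowest cell were named after their values were seen. The limits of 4000 TPM for Cd3g, 40 TPM for Zap70 and 60 TPM for Lat were not among the planned settings.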

Additional observations from a re-analysis of the deposited data

Results flagged for a closer look

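For 3 members, the change in CTCF-KD against WT went in opposite directions in the 2 experiments, and the difference between the experiments was not tested, since each has 1 culture per condition. Of all genes tested, 30.1% were higher and 26.7% lower in both experiments, and the rest had no shared direction. Opposite directions were thus common among all genes and not particular to these members. The log2 change of Cd247 was −1.34 in experiment 1 and 2.31 in experiment 2. The second value compares 46 reads in the culture labelled shCTCF #2 with 4 reads in shLuc #2. The log2 change of Lcp2 was −1.01 in experiment 1 and 0.12 in experiment 2. For Zap70 it was −0.25 and 0.051. Ctcf likewise changed sign, at −1.85 in experiment 1 and 0.27 in experiment 2.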

How the results depend on the processing

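No member passed the limma test at an adjusted p of 0.05 under any of the alternatives run (pseudocount of 10, other filters, centring, thinned reads, each culture left out, the shallowest cell left out). With the replicate block, which pairs the cultures of an experiment, 0 genes passed and the changes were −0.66 for Cd3g (adjusted p = 0.23) and 0.66 for Lat (adjusted p = 0.25); the block changed no call at an adjusted p of 0.05, while 4 members had an unadjusted p under 0.05 with it and 0 without it. With log2(TPM + 1) averaged over cells, 44 genes were higher and 2 lower, and the changes reversed to 0.12 for Fyn, 0.79 for Zap70 and 0.11 for Lcp2. Leaving out each culture moved the log2 change of Cd3e from −0.81 to 0.068 (above 0 without shLuc #1), of Cd247 from −1.03 to 2.01 (below 0 without shLuc #2), of Fyn from −0.68 to 0.18 (above 0 without shLuc #2 or shCTCF #1) and of Zap70 from −0.49 to 0.29 (above 0 without shLuc #1 or the culture labelled shCTCF #2). The cause was not tested. Cd3d (−0.51 to −0.20), Cd3g (−0.84 to −0.49), Lck (−0.72 to −0.39), Lat (0.39 to 0.92) and Lcp2 (−0.84 to −0.059, the latter without shCTCF #1) kept their direction when a culture was left out. Genes with increased variation numbered 602 by CV, 1050 by SD, 994 by SD without the shallowest cell (an alternative chosen after seeing the data) and 1021 with a pseudocount of 10. The share of cells with reads of Fyn turned from a difference of 11.3 to −3.08 percentage points with a threshold of 10 TPM. With a pseudocount of 10, 1021 of 7843 genes were called increased and 1088 decreased, Cd3e and Cd3g among the former and Zap70 among the latter. This setting kept the shallowest cell, on which the SD calls of Cd3e and Cd3g rested.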
